A study of Danio rerio with 8 samples.

Results

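Transcripts of the genes that carry amino acids across membranes were read out in sorted eosinophils of zebrafish larvae with and without Cebp1 or Cebpβ. The set held every gene listed in both expression tables whose symbol falls in the slc1a, slc3a, slc6a, slc7a, slc36a, slc38a or slc43a families, which gave 79 of 30838 genes. The symbol rule brings in slc7a6os, which is named for lying opposite slc7a6 and is not a transporter, and 4 monoamine carriers (slc6a2, slc6a3, slc6a4a and slc6a4b). The other 74 genes include slc43a3a and slc43a3b, whose mammalian counterpart carries purine nucleobases rather than amino acids. The rest are carriers of amino acids or related molecules, or their partner chains, as their families are known in mammals.

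Each of the 8 libraries was made from about 500 eGFP-positive cells sorted from dissociated whole larvae of the AB strain at 7 dpf (days post fertilization), every replicate from a different pool of individuals. All 8 carried the Tg(eslec:eGFP) reporter, in which a promoter fragment of the eosinophil lectin gene eslec (listed as si:dkeyp-75b4.10) drives eGFP. A first table compared 2 libraries of cebp1+/+ with 2 of cebp1-/- (smu1 allele), and a second table compared 2 libraries of cebpb+/+ with 2 of cebpb-/- (szy7 allele). The comparisons share no control libraries, and values were tested only within a table because the tables were normalized apart. Levels are TPM, a share of all transcripts of a library after correction for gene length, so that levels of different genes can be compared within a library.

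Amino acid transporters work in a few recurring ways. The slc3a heavy chains bring slc7a light chains to the cell surface as exchangers, while the cationic members of slc7a carry arginine and lysine without a heavy chain. Members of slc38a, slc1a and slc6a use the sodium gradient, slc36a members use protons, and slc43a1 and slc43a2 let large neutral amino acids through passively. In mammals SLC43A3 carries purine nucleobases rather than amino acids. Several carriers, among them SLC38A9 on the lysosome, also report amino acid supply to the growth-controlling kinase complex mTORC1 in mammalian cells.

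Eosinophil markers were high in all 8 libraries, which differed in markers of other cells. The highest marker in each was eslec, whose promoter drives the sorted reporter, at 11658 TPM or more. The 9 eosinophil lineage markers examined summed to 14326 to 16852 TPM in cebp1+/+, 25727 to 28631 in cebp1-/-, 46517 to 51014 in cebpb+/+ and 22780 to 30189 in cebpb-/-, with none at 0 in any library. The 12 markers of other blood cells examined (neutrophils, macrophages, red cells and leucocytes in general) summed to 77.4 to 92.4 TPM in cebp1+/+, 20.6 to 25.2 in cebp1-/-, 179 to 1014 in cebpb+/+ and 7.51 to 203 in cebpb-/-. Of these 12, 2 to 3 were at 0 in cebp1+/+, 4 in cebp1-/-, 5 to 7 in cebpb+/+ and 4 to 9 in cebpb-/-. The gene of leucocytes in general is coro1a, which the authors also detected in eosinophils and which is thus no marker of other cells alone. It stood at 0 to 0.716 TPM over the 8 libraries. The macrophage genes mpeg1.1 and c1qa were at 0 in all 8 libraries. The macrophage genes mfap4 and marco were above 0 in all 8. In the second table mfap4 stood at 148 and 109 TPM in cebpb+/+ against 108 and 6.72 in cebpb-/-. There marco stood at 22.3 and 12.7 TPM against 89.3 and 0.527. The highest value of the list was that of hbae3, an embryonic globin gene, at 834 TPM in the second cebpb+/+ library. The 10 muscle markers examined summed to 78.2 to 166 TPM in cebp1+/+ and 29.5 to 928 in cebp1-/-. They summed to 13.3 to 30.5 TPM in cebpb+/+ and 31.8 to 129 in cebpb-/-. The 13 markers of liver, gut, pancreas and kidney summed to 253 to 519 TPM in cebp1+/+ and 97.4 to 127 in cebp1-/-. Their sums were 4.88 to 13.5 TPM in cebpb+/+ and 0.0332 to 249 in cebpb-/-. The part of all these markers in the transporter results was not tested. The targeted gene cebp1 was listed at 0 in all 8 libraries and so could not check the labels, while cebpb was at 6360 and 5716 TPM in cebpb+/+ against 2928 and 1480 in cebpb-/-. Low values were unevenly filled: the level of the median gene was 6.95 and 5.43 TPM for cebp1+/+ and 2.19 and 2.697 for cebp1-/-, and 0 to 0.0215 in the second table. Scaling each table by the median of ratios (a factor per library taken from the typical gene) therefore adds 1.07 on the log2 scale to a highly expressed gene in cebp1-/- over cebp1+/+, and -0.55 in cebpb-/- over cebpb+/+. Fold changes are given on both scales below for this reason. In bulk samples, fewer cells of a type and less RNA per cell cannot be told apart.

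In wild-type eosinophils the heavy chain gene slc3a2b had the highest mean of the set in the first table and followed slc43a3b in the second. With these genes, the cationic carrier slc7a3a and the glutamine-type carrier slc38a5b made up the 4 highest means of both tables. slc3a2b, a zebrafish copy of the CD98 heavy chain gene, had levels of 174 and 167 TPM in the cebp1+/+ libraries, where it ranked 318 and 342 among all genes. No other transporter overlapped it there. In the cebpb+/+ libraries it stood at 261 and 219 TPM, second to slc43a3b at 316 and 474 TPM. Neither gene overlapped its neighbours in that order.

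Below slc3a2b, 5 genes of the first table formed a run in which each overlapped the next. slc38a5b, of the sodium-coupled carriers of glutamine, histidine and asparagine, stood at 80.1 and 42.3 TPM. slc43a3b stood at 42.5 and 52.7 TPM. slc7a3a, a carrier of arginine, lysine and ornithine, stood at 55.4 and 35.03 TPM. These 3 genes were also among the 4 highest transporters of the second table. slc1a2b, a glial glutamate carrier in vertebrates, stood at 53.4 and 28.7 TPM. slc38a11, a little-studied relative of the glutamine carriers, stood at 40.3 and 38.3 TPM, above slc7a8a without overlap. slc7a8a, a light chain partner of the slc3a2 heavy chains, stood at 30.5 and 31.0 TPM.

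**Figure D1:**
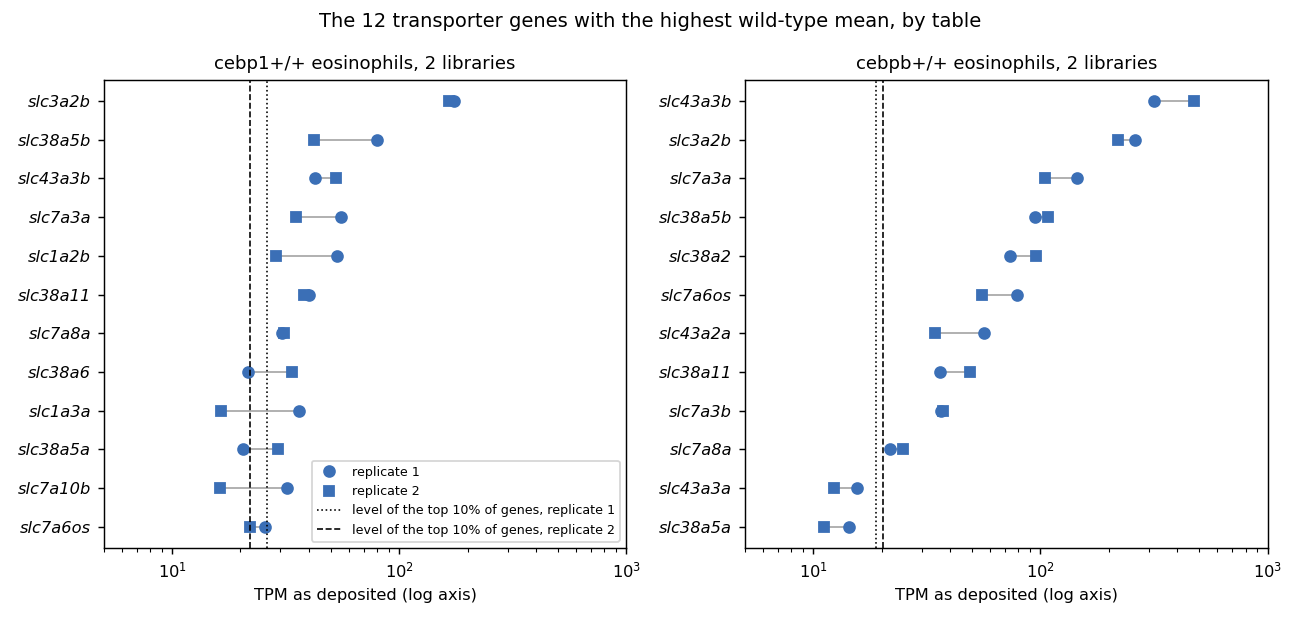
Levels (TPM, log axis) of the 12 transporter genes with the highest wild-type mean in each table, 1 point per library and 2 libraries per genotype; the vertical lines mark the level that the top 10% of all genes exceed in each library. slc3a2b at 174 and 167 TPM stands apart in cebp1+/+, and slc43a3b and slc3a2b stand apart in cebpb+/+.

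The second table gave a steeper order. slc7a3a stood at 145 and 104 TPM and slc38a5b at 94.6 and 108, so that they overlapped. slc38a2, the sodium-coupled carrier that mammalian cells raise when amino acids run short, followed at 73.3 and 95.4 TPM. slc43a2a, a facilitative carrier of large neutral amino acids, stood at 56.5 and 34.5 TPM and overlapped slc38a11 at 36.3 and 49.1. slc7a3b, the paralog of slc7a3a, stood at 36.7 and 37.2 TPM and did not overlap the next gene, slc7a8a, at 21.7 and 24.8. slc43a3a at 15.6 and 12.3 TPM and slc38a5a at 14.4 and 11.1 completed the 12 highest, together with slc7a6os at 79.1 and 55.5. The RNA kit does not mark strand, so reads of slc7a6os and slc7a6 cannot be told apart where they overlap.

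In all, 8 genes were among the 12 highest of both tables: slc3a2b, slc7a3a, slc38a5b, slc38a5a, slc38a11, slc7a8a, slc43a3b and slc7a6os. Between 10 and 11 of the 79 genes were in the top 10% of all genes in each wild-type library. Summed over the set, the transporter transcripts were 0.127% and 0.106% of the cebp1+/+ libraries and 0.128% and 0.132% of the cebpb+/+ libraries. Its 5 highest genes held 31.9% and 31.6% of that in cebp1+/+ and 69.8% and 75.7% in cebpb+/+.

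The rest of the order differed in how far down it reached. In cebp1+/+ 75 of 79 genes were above 0 in both libraries and 4 were listed at 0 in all 4 libraries of the table (slc6a5, slc7a7, slc38a8b and slc43a1a). In cebpb+/+ 34 genes were above 0 in both libraries, 28 were listed at 0 in both and 45 were under 1 TPM in both. The same held over all genes, of which cebp1+/+ listed 87.8% and 88.1% above 0 and cebpb+/+ 46.6% and 46.3%. As examples, the cebpb+/+ libraries listed slc1a2b at 0.0357 and 0.103 TPM. They listed slc6a1b, a GABA carrier, at 0 and 0.0644 TPM, against 32.9 and 9.52 in cebp1+/+. The 11 neuron and glia markers examined summed to between 747 and 791 TPM in cebp1+/+ and between 9.31 and 15.8 in cebpb+/+. Of these 11 markers none was at 0 in cebp1+/+ and 5 to 6 were at 0 in cebpb+/+. Their part in the transporter levels was not tested, and the tables were normalized separately.

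**Figure D2:**
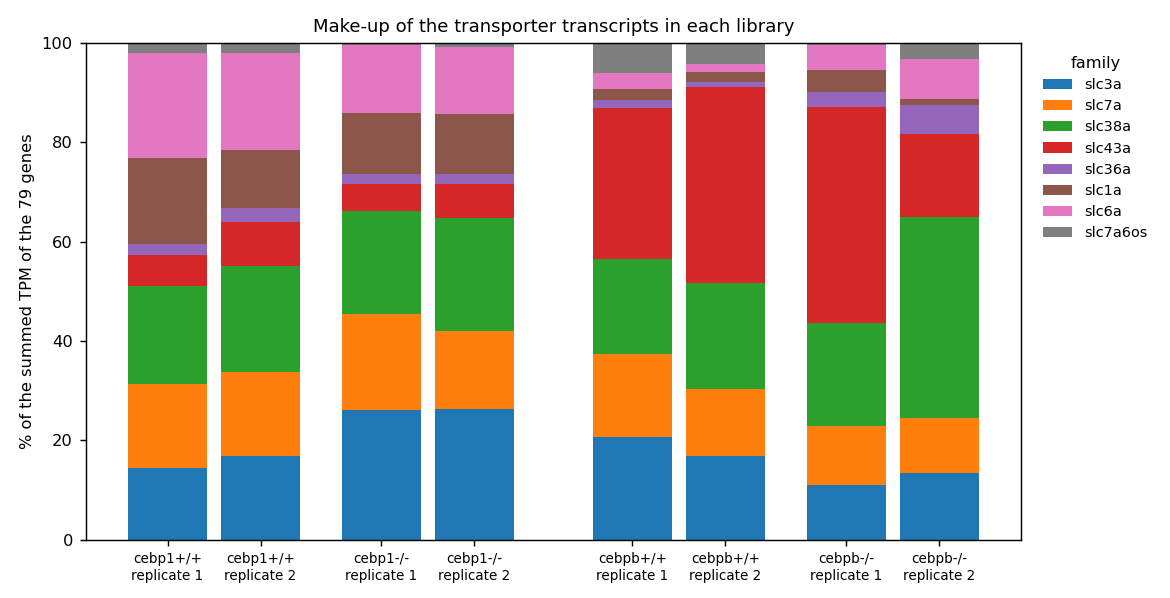
Share of the summed TPM of the 79 genes held by each family in each of the 8 libraries (stacked bars that add up to the whole, in %; slc7a6os shown apart). The slc3a heavy chains held 14.4% and 16.9% in cebp1+/+ against 26.0% and 26.3% in cebp1-/-, and slc43a held 16.7% to 43.5% in the 4 libraries of the cebpb table.

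Not every well-known carrier of leucocytes was high. slc7a5, the light chain that imports leucine in mammals, reached 11.5 and 13.2 TPM for cebp1+/+ and 0.651 and 2.41 for cebpb+/+. slc7a11, the cystine and glutamate exchanger, stood at 8.04 and 9.22 TPM and at 0 and 0.374. Both were thus well under their heavy chain partner slc3a2b in every wild-type library. The neutral amino acid exchangers slc1a4 and slc1a5 stood at 4.29 to 16.7 TPM over the 4 wild-type libraries. slc3a2a, the other CD98 heavy chain copy, had 7.62 and 11.8 TPM for cebp1+/+, and 4.18 and 3.36 for cebpb+/+.

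The first comparison asks what the loss of Cebp1 does to these genes. In cebp1-/- eosinophils the deposited levels of most transporters were lower than in cebp1+/+, while those of 5 of the 74 tested, where 5.11% of all genes were, were higher without overlap: slc3a2b, slc7a3a, slc38a2, slc38a5b and slc43a2a. After scaling, none of the 74 transporters tested was called higher and none lower by limma at an adjusted p under 0.05, where 1.28% of all 25203 genes tested were called higher and 0.127% lower. At an unadjusted p under 0.05, 9 transporters were higher and 4 lower, with 9.7% and 4.91% of all genes in those directions. With any 1 of the 4 libraries left out, 0 of all genes were called. Their median log2 fold change was -0.08 against -0.06 over all genes, and -0.91 against -0.90 in TPM as deposited.

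The 5 higher genes were 6.76% of the transporters tested, beside 5.11% of all genes. They are a heavy chain, a cationic carrier and carriers of neutral amino acids. slc3a2b went from 174 and 167 TPM in the wild type to 212 and 235 in the mutant. Its log2 fold change was 1.45 ± 0.28 (SE) with an adjusted p of 0.0564 after scaling, and 0.39 as deposited. slc7a3a stood at 55.4 and 35.03 TPM against 77.1 and 68.4, with 1.76 ± 0.34, an adjusted p of 0.0587 and 0.71 as deposited. For both genes the genotypes did not overlap on either scale, and neither was called.

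The remaining genes of these 5 are carriers of neutral amino acids. slc38a2 stood at 12.6 and 14.3 TPM in cebp1+/+ against 24.6 and 23.5 in cebp1-/-, a log2 fold change of 1.80 ± 0.39 (adjusted p = 0.0797; 0.80 as deposited). slc38a5b stood at 80.1 and 42.3 against 90.5 and 97.8 TPM, a log2 fold change of 1.74 ± 0.34 (adjusted p = 0.0620; 0.68 as deposited). slc43a2a stood at 9.32 and 24.7 against 33.0 and 39.9 TPM, a log2 fold change of 2.20 ± 0.53 (adjusted p = 0.107; 1.19 as deposited). All 9 eosinophil lineage markers were also higher in cebp1-/- at an unadjusted p under 0.05 after scaling, where 9.7% of all genes were. After scaling 6 of them were called, where 1.28% of all genes were called higher. In TPM as deposited none was called (smallest adjusted p = 0.0573), and ccr9a stood at 98.2 and 117 against 98.1 and 116. The median log2 fold change of the 9 was 1.84 after scaling and 0.77 as deposited. The part of these markers in the 5 transporters was not tested.

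Other abundant transporters were lower in deposited TPM. slc43a3b stood at 42.5 and 52.7 TPM in cebp1+/+ against 5.40 and 12.5 in cebp1-/-, and slc38a11 at 40.3 and 38.3 against 10.3 and 17.4. Their log2 fold changes were -1.38 ± 0.46 (adjusted p = 0.225) and -0.46 after scaling, and -2.38 and -1.48 as deposited. The genotypes did not overlap for either gene on either scale. slc36a1, a proton-coupled carrier of glycine, alanine and proline, stood at 20.1 and 20.6 against 6.99 and 9.25 TPM, and slc7a10b, a light chain, at 32.0 and 16.2 against 5.96 and 2.15. slc7a6os stood at 25.7 and 22.1 against 3.303 and 7.11 TPM. In deposited TPM 47 of 74 transporters were lower without overlap, where 61% of all genes were, and after scaling 21 were lower and 17 higher, where 23.3% and 23.1% of all genes were.

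Some transporters stood apart only after scaling. slc1a3a, a glial glutamate carrier, stood at 36.1 and 16.4 TPM against 28.0 and 23.6. slc7a10a, a light chain of small neutral amino acid exchange, stood at 15.4 and 16.0 against 23.0 and 15.7. slc6a1b stood at 32.9 and 9.52 against 25.4 and 22.7. Their log2 fold changes were 1.103, 1.27 and 1.42 after scaling and 0.07, 0.26 and 0.41 as deposited, and in TPM the genotypes of each overlapped.

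**Figure D3:**
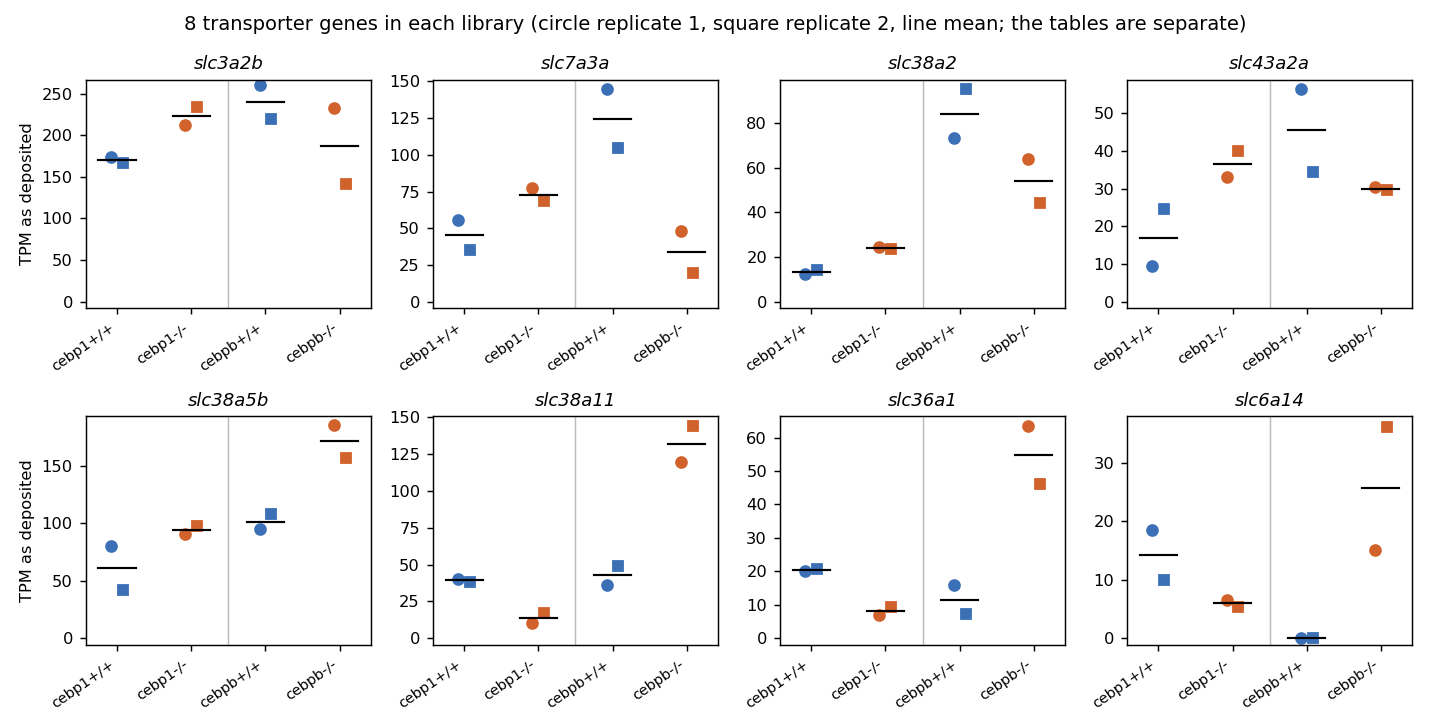
TPM as deposited of 8 transporter genes in each library (circle, replicate 1; square, replicate 2; line, mean of 2 libraries; blue, wild type; orange, mutant; axes start at 0 and the tables are separate). slc7a3a goes from 55.4 and 35.03 to 77.1 and 68.4 TPM with the cebp1 mutation and from 145 and 104 to 47.8 and 19.6 TPM with the cebpb mutation, and slc38a11 runs the opposite way in both tables.

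The second comparison asks the same of Cebpβ. In cebpb-/- eosinophils the arginine carrier slc7a3a was lower, and 14 of the 35 transporters tested were higher in deposited TPM without overlap, where 30.9% of all genes were, among them slc38a11, slc36a1, slc38a10 and slc7a8a. After scaling, none of the 35 transporters tested was called higher or lower by limma, and 0 of all 11478 genes tested were (0% in each direction). At an unadjusted p under 0.05, 6 transporters were higher and 5 lower, with 6.13% and 8.05% of all genes in those directions. The median log2 fold change of the transporters was 0.12 against -0.03 over all genes, and 0.69 against 0.46 as deposited. The other 44 transporters had a mean below 1 scaled TPM. slc6a14, slc1a2b and slc38a9 were under 1 TPM in both cebpb+/+ libraries and reached this mean only through the mutant libraries. They are among the 14 higher, and slc6a14 and slc1a2b are among the 6. Counts of higher transporters in this table are therefore a description. slc6a1b, slc7a10b and slc7a4 also reached the mean in that way.

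slc7a3a had the smallest p of the transporters. Levels of 145 and 104 TPM in the wild type faced 47.8 and 19.6 in the mutant, a mean 3.70-fold lower in the mutant. Its log2 fold change was -2.51 ± 0.53 after scaling, with an adjusted p of 0.175, and -1.97 as deposited. The direction of the paralog slc7a3b depended on the scale. It stood at 36.7 and 37.2 TPM against 54.9 and 43.4, higher without overlap in deposited TPM and lower without overlap after scaling. Its log2 fold change after scaling was -0.15 ± 0.43, so its own direction cannot be said. Its ratio to slc3a2b within a library does not depend on the scaling. That ratio was 0.141 and 0.170 in cebpb+/+ against 0.235 and 0.306 in cebpb-/-. The ratio of slc7a3a went from 0.555 and 0.476 to 0.205 and 0.138. In these ratios, which were not tested, slc7a3b therefore did not follow slc7a3a.

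The heavy chain gene and the neutral carriers slc38a2 and slc43a2a, which stood higher in cebp1-/-, had lower means here. slc3a2b stood at 261 and 219 TPM against 233 and 142, with overlap in TPM (log2 -0.94 ± 0.34 after scaling, -0.39 as deposited). slc38a2 stood at 73.3 and 95.4 against 63.9 and 44.1 TPM (-1.19 ± 0.40 and -0.64). slc43a2a stood at 56.5 and 34.5 against 30.4 and 29.5 TPM (-1.08 ± 0.51 and -0.55). The adjusted p values were 0.316, 0.295 and 0.422. Of the 9 eosinophil lineage markers 6 were also lower at an unadjusted p under 0.05 after scaling, where 8.05% of all genes were. Among them xbp1, at 3626 and 3963 TPM against 3704 and 4252, was lower only after scaling (log2 -0.49, and 0.07 as deposited). The other direction held for 1 marker, il1rl1, at 45.3 and 60.7 TPM against 377 and 384. The median over the 9 was -1.04 after scaling and -0.49 as deposited. The part of these markers in the levels of the carriers was not tested.

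slc43a3a and slc43a3b showed the 2 extremes of the facilitative family. slc43a3a had 15.6 and 12.3 TPM in the wild type and was listed at 0 in both cebpb-/- libraries, so that no fold is given. slc43a3b stood at 316 and 474 TPM against 971 and 155. Its mutant libraries thus lay on either side of the wild types, and without a call the gene cannot be said to have moved.

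Several sodium- and proton-coupled carriers stood higher in cebpb-/-. slc38a11 stood at 36.3 and 49.1 TPM against 120 and 144, a mean 3.08-fold higher in the mutant (log2 1.07 ± 0.40 after scaling, adjusted p = 0.325; 1.61 as deposited). slc36a1 stood at 15.8 and 7.13 against 63.5 and 46.2 TPM, a mean 4.78-fold higher (1.71 ± 0.62, adjusted p = 0.322; 2.24 as deposited). slc38a10 stood at 10.9 and 14.0 against 67.6 and 36.6 TPM, and slc38a5b at 94.6 and 108 against 186 and 157. For all 4 genes the genotypes did not overlap on either scale. slc38a9, the lysosomal arginine sensor of mammalian cells, stood at 0 and 0.466 against 4.35 and 9.92 TPM, and slc7a8a at 21.7 and 24.8 against 126 and 42.5.

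A further group was near 0 in cebpb+/+ and present in 1 or both mutant libraries. slc6a14, a carrier of neutral and cationic amino acids known from epithelia, was listed at 0 in both cebpb+/+ libraries and stood at 15.2 and 36.1 TPM in cebpb-/-. The 10 keratinocyte markers examined summed to 10.8 to 65.0 TPM in cebpb+/+ and 274 to 880 in cebpb-/-, and to 190 to 1244 in cebp1+/+ and 11.4 to 15.1 in cebp1-/-. In the first table slc6a14 was at 18.5 and 10.02 TPM in the wild type and 6.53 and 5.41 in the mutant, which overlapped after scaling (log2 -0.11). Within cebp1+/+ the library with the marker sum of 190 TPM had the 18.5 and that with 1244 had the 10.02. Within cebp1-/- the sum of 11.4 went with 6.53 and that of 15.1 with 5.41. Within cebpb-/- the order was the same for both, the sum of 274 with 15.2 and that of 880 with 36.1. Between 2 and 3 of the 10 markers were at 0 in cebp1+/+ and in cebpb-/-, 3 in cebp1-/- and 5 to 6 in cebpb+/+. Their part in slc6a14 was not tested.

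Some carriers differed strongly between the 2 mutant libraries. slc1a2b stood at 56.7 TPM in the first cebpb-/- library and 6.01 in the second, slc6a1b at 29.4 and 0, and slc7a10b at 12.1 and 0. slc6a17, a vesicular carrier of neutral amino acids in nerve cells, stood at 2.83 and 0.0864 TPM in cebpb+/+ against 49.1 and 12.8. These 4 were higher in the first mutant library than in the second. slc6a13, a GABA and taurine carrier, stood at 0.0724 TPM in the first and 28.5 in the second, and slc38a7, a glutamine carrier, at 0 and 24.5. The 11 neuron and glia markers summed to 60.5 TPM in the first and 253 in the second, with 2 to 4 of them at 0. The 10 keratinocyte markers, at 274 and 880 TPM, had the same order as these. The reverse order was that of muscle markers (129 and 31.8 TPM), of liver, gut, pancreas and kidney markers (249 and 0.0332) and of other blood cell markers (203 and 7.51). Single genes made up much of some sums: fabp7a (54.0 and 154 TPM), krt4 (178 and 498), actc1b (110 and 0.940) and tfa (227 and 0). Some markers had the order opposite to their list. Among them were tnnt3b (0.503 and 16.3), ckmb (1.03 and 4.68) and acta1a (0 and 0.299) of muscle, and krt17 (5.40 and 0.171) of keratinocytes. The part of any of these lists in the carriers was not tested. In deposited TPM 7 of 35 transporters were lower without overlap, where 15.4% of all genes were. After scaling 10 were higher and 10 lower, where 21.1% and 23.6% were.

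Whether the mutations moved a transporter differently was tested in 1 fit of all 8 libraries, as the effect of cebp1-/- minus the effect of cebpb-/-. After scaling, limma called 5 of the 35 transporters tested in both tables. The effects of the mutations on slc7a3a, slc3a2b, slc38a2 and slc43a2a differed in the positive direction, each with a higher mean in cebp1-/- and a lower mean in cebpb-/- than in its wild type, and the effects on slc6a14 in the negative direction. Over all 11360 genes 6.09% were called positive and 0.739% negative. The 4 of 35 positive calls are 11.4% and the 1 negative call is 2.86% of the transporters. The negative call, slc6a14, passed the filter on low values in the second table only through its mutant libraries and is a description. The median difference was 0.40 over the transporters and 0.43 over all genes. Of the 9 eosinophil lineage markers 7 were called positive as well, with a median difference of 2.59 over the 9 (0.97 as deposited). The marker il1rl1 was at -1.02 (adjusted p = 0.270), and at -2.61 with an adjusted p of 0.0239 as deposited. The part of these markers in the 4 transporters was not tested. With 1 library left out the number of transporters called ran from 1 to 10. It was 1, slc7a3a alone, without either cebp1-/- library or without the first cebpb+/+ library, 2 (slc7a3a and slc3a2b) without the first cebp1+/+ or the second cebpb+/+ library, 4 without the second cebp1+/+ library, 7 without the first cebpb-/- library and 10 without the second.

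slc7a3a had the largest of the positive differences, 4.26 ± 0.63 (SE) on the log2 scale with an adjusted p of 0.00597. The difference for slc3a2b was 2.39 ± 0.40 (adjusted p = 0.0101), for slc38a2 2.99 ± 0.56 (adjusted p = 0.0160) and for slc43a2a 3.28 ± 0.80 (adjusted p = 0.0458). That for slc6a14 was -4.39 ± 1.014 (adjusted p = 0.0376), a value that depends on the pseudocount because its cebpb+/+ libraries were at 0. These calls depended on the scaling. In TPM as deposited the differences of the first 4 were 2.68, 0.78, 1.44 and 1.74 with adjusted p values of 0.0605, 0.261, 0.156 and 0.200, so that none was called and each kept its direction.

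In TPM as deposited the calls were instead 3 negative ones. They were slc6a14 at -5.69 (adjusted p = 0.0273), slc38a11 at -3.09 (adjusted p = 0.0273) and slc36a1 at -3.48 (adjusted p = 0.0429), and 3.53% of all genes were called negative and 0.919% positive there. The median difference was then -1.08 over the transporters and -0.98 over all genes. After scaling, the differences for slc38a11 and slc36a1 were -1.53 ± 0.55 (adjusted p = 0.146) and -1.96 ± 0.76 (adjusted p = 0.168). slc6a14 passed the filter on low values in the second table through its mutant libraries alone, so that its calls are given as a description. After scaling it was called in 2 of the 8 fits that left out a library, and slc7a3a in all 8.

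**Figure D4:**
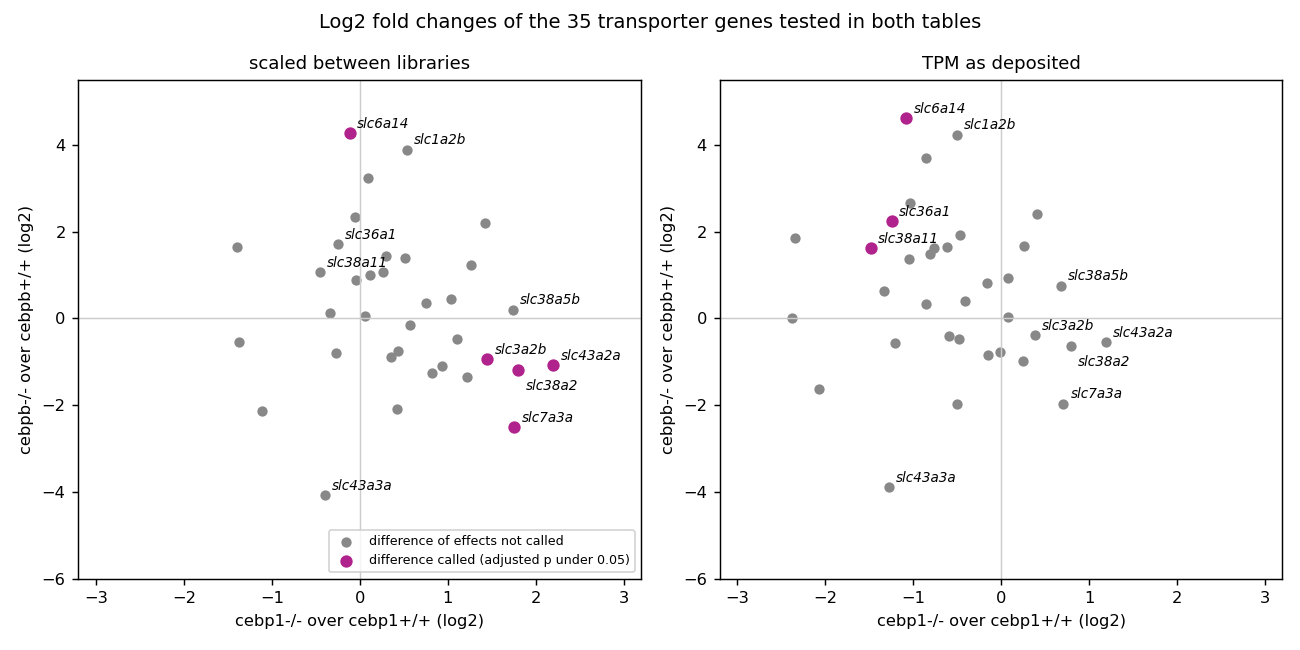
Log2 fold change of cebp1-/- over cebp1+/+ (x axis) against that of cebpb-/- over cebpb+/+ (y axis) for the 35 transporters tested in both tables, scaled between libraries (left) and as deposited (right); filled purple points are genes whose 2 effects differ at an adjusted p under 0.05. slc7a3a, slc38a2 and slc43a2a lie at the lower right and slc38a11 at the upper left in both panels.

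In a description that needs no fold change, 4 names kept the same opposite pattern in the 2 mutants on both scales. slc7a3b had an opposite pattern on both scales, but its direction turned with the scaling. It was lower in cebp1-/- and higher in cebpb-/- as deposited, and the other way after scaling. The other names had their pattern on 1 scale only. slc7a3a, slc38a2 and slc43a2a were higher in cebp1-/- and lower in cebpb-/- without overlap, in deposited as in scaled values. slc38a11 was the reverse on both. In deposited TPM 3 of 35 transporters had the first pattern, where 2.89% of all genes did, and 10 had the second, where 18.1% did. Among these 10 were slc6a14 and slc38a9, which were tested in the second table only through their mutant libraries. After scaling 6 had the first, where 13.4% of all genes did, and 1 had the second, where 3.56% did. slc38a5b was higher without overlap in both mutants, and slc7a6os lower in both, on either scale. The share of all genes that kept any of these patterns on both scales was not counted. After scaling the limma log2 fold change of slc38a5b in cebpb-/- was only 0.20 ± 0.31 (adjusted p = 0.775). In deposited TPM 1 of 35 transporters was higher in both mutants and 3 were lower in both, where 2.02% and 6.28% of all genes were. After scaling 2 were higher in both and 1 lower in both, where 6.59% and 1.8% of all genes were.

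Ratios of 2 genes within a library do not depend on the scaling, and slc3a2b served as the reference. slc7a3a was 0.318 and 0.210 of slc3a2b in cebp1+/+ and 0.364 and 0.292 in cebp1-/-, which overlap. In cebpb+/+ it was 0.555 and 0.476 and in cebpb-/- 0.205 and 0.138, without overlap. The arginine carrier was therefore lower relative to the heavy chain gene in cebpb-/-, and not separable in cebp1-/-. With 2 libraries against 2 no exact permutation test can go below a two-sided p of 0.33, so these ratios are given without a test.

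slc38a11 and slc36a1 shifted relative to slc3a2b in both tables. slc38a11 was 0.231 and 0.230 of slc3a2b in cebp1+/+ and 0.0487 and 0.0742 in cebp1-/-, then 0.139 and 0.224 in cebpb+/+ and 0.513 and 1.012 in cebpb-/-. slc36a1 was 0.115 and 0.124, then 0.0330 and 0.0394, in the first table, and 0.0607 and 0.0325, then 0.272 and 0.326, in the second. Neither gene overlapped between genotypes in either table. The reference itself was at log2 0.39 in cebp1-/- and -0.39 in cebpb-/- as deposited, where the median over all genes was -0.90 and 0.46. The median gene thus also went down relative to slc3a2b in cebp1-/- and up in cebpb-/-. These 2 shifts are therefore not particular to slc38a11 and slc36a1, and the share of all genes with such a shift was not counted. slc38a2 was 0.0720 and 0.0861 against 0.116 and 0.1003 in the first table and 0.281 and 0.435 against 0.274 and 0.311 in the second, where the genotypes overlapped.

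**Figure D5:**
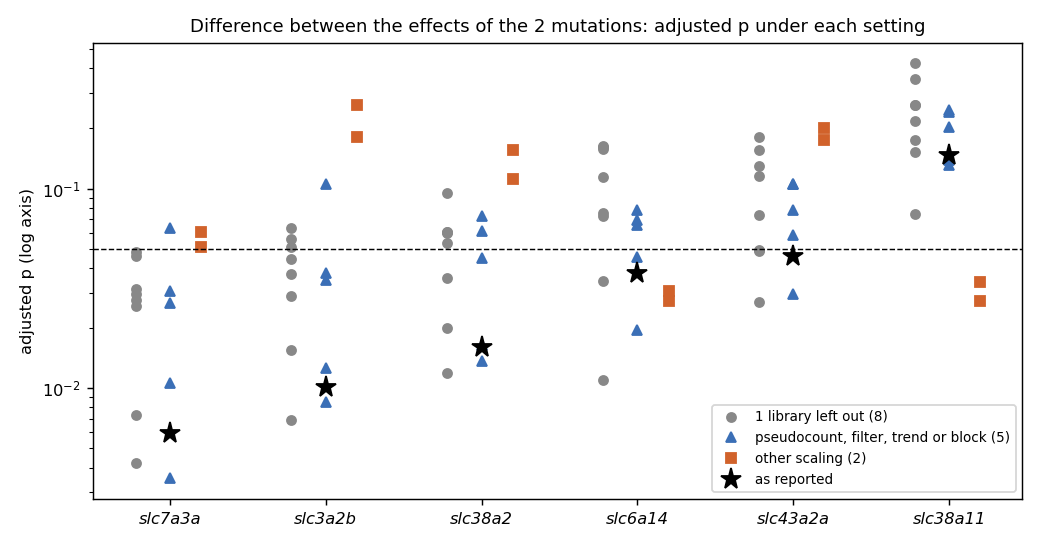
Adjusted p (log axis; dashed line at 0.05) of the difference between the effects of the 2 mutations for 6 transporters, as reported (star) and under 15 other settings: 8 with 1 library left out, 5 of pseudocount, filter, trend or replicate block, and 2 of scaling. slc7a3a stays under the line in all 8 fits with a library left out, and the 2 other scalings put slc7a3a above it and slc38a11 below it.

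The neighbouring amino acid pathways were examined in 3 lists. After scaling, their median log2 fold changes in cebp1-/- were 0.80 (amino acid response), 0.46 (mTORC1 sensing) and 0.26 (carriers outside the rule) beside -0.06 over all genes, and -0.21, -0.51 and -0.75 as deposited beside -0.90. In cebpb-/- they were -0.09, 0.22 and -0.55 beside -0.03, and 0.42, 0.59 and -0.03 as deposited beside 0.46. In the list of the amino acid response, the program that mammalian ATF4 drives when amino acids run short, 1 of 21 genes tested was called higher in cebp1-/- and none lower, and none of 18 was called in cebpb-/-. The called gene was pycr1b, a gene of proline synthesis, at 5.40 and 3.29 TPM in cebp1+/+ against 26.5 and 23.1 in cebp1-/- (log2 3.23 ± 0.42, adjusted p = 0.0257; 2.298 with an adjusted p of 0.0696 as deposited). The difference between the effects was called for 2 of 18 genes, where 6.09% of all genes were called positive. They were pycr1b (4.51, adjusted p = 0.0332; 3.06 with 0.129 as deposited) and chac1, which encodes a glutathione-degrading enzyme (3.197, adjusted p = 0.00557; 1.59 with 0.0498 as deposited). Levels of chac1 were 44.9 and 67.4 against 104 and 118 TPM in the first table and 708 and 836 against 477 and 543 in the second.

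The transcription factor gene itself took another course, in cebpb-/- together with other genes of the list. Levels of atf4a were 175 and 140 TPM in cebp1+/+ against 241 and 198 in cebp1-/-, then 405 and 331 in cebpb+/+ against 1297 and 1038 in cebpb-/-. It was higher without overlap in both mutants in deposited TPM and was called in neither (adjusted p = 0.0574 and 0.182). The difference between its effects was not called either (0.43, adjusted p = 0.527). Other genes of the list also stood higher in cebpb-/- without overlap in deposited TPM. They included atf3 (118 and 186 against 758 and 831), ddit3 (400 and 382 against 859 and 645) and trib3 (214 and 287 against 558 and 406). None of them was called. After scaling, 2 genes of the list were higher and 1 lower in cebpb-/- at an unadjusted p under 0.05, where 6.13% and 8.05% of all genes were.

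None of the 26 genes of mTORC1 amino acid sensing tested in the first table was called, and none of 24 in the second. At an unadjusted p under 0.05, 4 were higher in cebp1-/- and 0 in cebpb-/-, where 9.7% and 6.13% of all genes were. The difference between the effects was called for 2 of 24, beside the same 6.09% of all genes: sesn1, a sestrin (2.83, adjusted p = 0.0288), and lamtor4, a Ragulator subunit (1.996, adjusted p = 0.0445). Neither was called in deposited TPM (adjusted p = 0.248 and 0.579). Of the 21 tested carriers outside the rule, which move peptides, vesicular glutamate or mitochondrial substrates, 1 was called higher in cebp1-/-. It was slc17a5, a lysosomal carrier of sialic acid and acidic amino acids, at 21.6 and 17.0 against 60.8 and 37.4 TPM (log2 2.302 ± 0.41, adjusted p = 0.0479; 1.27 with 0.0954 as deposited). None of 13 was called in cebpb-/-.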

How the data were processed

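The authors sorted the cells by FACS, made libraries with a modified Smart-seq2 protocol, mapped reads with STAR (GRCz11), assigned them to genes with featureCounts and deposited TPM in 2 tables, replicates apart. Gene lengths and annotation are not given in the sources used here. TPM keep no depth, so the reads behind a value are unknown and no counting error is given. The authors' DESeq2 test ran on counts not used here, nor were their tables of comparisons.

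Per table, TPM were scaled by the median of ratios over genes above 0 in all 4 libraries and averaging at least 1 TPM. Genes averaging at least 1 scaled TPM were tested by limma 3.58.1 (R 4.3.3) on log2(scaled TPM + 1) with a mean-variance trend, two-sided, with Benjamini-Hochberg adjustment over all genes tested; changes of low genes are understated. One fit of all 8 libraries tested the difference between the effects. The code was tested on simulated data.

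Named transporters are those called in any comparison, the 12 highest wild-type means and 8 smallest p per table, the 6 smallest p of the difference, and 12 chosen for their roles; of the lists, those called. slc36a1, slc38a10, slc6a13, slc38a7, slc7a4, atf4a, atf3, ddit3, trib3, ccr9a and the genes at 0 were named after their values were seen. Members and lists were chosen with earlier results of these data known. Of 79 symbols 78 were found in the RefSeq table. The copies slc6a19a.1 and slc6a19a.2, and slc6a13 and slc6a13l, may share reads. A planned promoter motif search was not run. Alternatives were 2 other scalings, pseudocounts of 0.1 and 5, no filter, no trend, the replicate number as a block and each library left out. Figures were drawn with matplotlib 3.10.9.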

Additional observations from a re-analysis of the deposited data

Results flagged for a closer look

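For 5 transporters the effect of the cebp1 mutation differed from that of the cebpb mutation in the fit of all 8 libraries (cebp1 effect minus cebpb effect, log2, scaled TPM). The difference was 4.26 for slc7a3a, 2.39 for slc3a2b, 2.99 for slc38a2, 3.28 for slc43a2a and -4.39 for slc6a14. With 1 library left out in turn, slc7a3a was called in 8 of 8 fits (adjusted p 0.00422 to 0.0482), slc3a2b in 5, slc38a2 and slc43a2a in 3 each and slc6a14 in 2. In TPM as deposited none of the first 4 was called. slc6a14 was listed at 0 in both cebpb+/+ libraries, so that its value depends on the pseudocount. It passed the filter on low values there only through its mutant libraries, so its difference is given as a description.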

How the results depend on the processing

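No transporter was called in either table under any of the alternatives run. The number of transporters called for the difference between the effects was 5, and became 3 in TPM as deposited, 2 when the scaling used genes of at least 50 TPM, and 0 without the mean-variance trend, where 70 and 24 of all genes were called positive and negative against 692 and 84. Scaling on genes of at least 50 TPM called slc6a14 and slc38a11, and slc7a3a was then at 2.90 with an adjusted p of 0.0507. Leaving out 1 library gave 1 to 10 calls: 1 without either cebp1-/- library or without the first cebpb+/+ library, 2 without the first cebp1+/+ or the second cebpb+/+ library, and 10 without the second cebpb-/- library. Among all genes of the first table, 323 were called higher and 32 lower, and 0 with any 1 library left out, without the filter or without the trend; in TPM as deposited they were 16 and 29. The second table had 0 calls, but 4 higher and 6 lower with a pseudocount of 5. Replicate numbers are shared by the genotypes, but deviations of same-numbered libraries correlated at 0.00811 and -0.0188 over 2 pairs in each table, so the libraries share only a number. With the replicate number as a block 2 transporters were called for the difference, slc7a3a and slc3a2b, and 12 and 17 of all genes of the second table were called higher and lower. The median of all genes moved by 0.87 and -0.41 between deposited and scaled values in the 2 tables. Depth is unknown, so low values cannot be weighed.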
